A study of Mus musculus with 16 samples.

Results

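Members of the insulin, IGF and leptin receptor pathways were described across the cell classes of mouse kidneys with and without diabetic nephropathy (DN). The members were 10 genes fixed by symbol, out of 31053 genes in the deposited tables, and all 10 were found. They were the ligand Igf1, the IGF binding protein Igfbp5, the receptors Insr, Igf1r and Lepr, the adaptors Irs1 and Irs2, the PI3K regulatory subunit Pik3r1, the transcription factor Foxo1 and the feedback inhibitor Socs3. Unique molecular identifiers (UMIs, each standing for 1 captured RNA molecule) were summed over the cells of 1 class in 1 library and scaled to a total of 1000000 UMIs, the unit CPM.

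The 16 libraries were single-cell 3' libraries from 1 mouse each. The DN mice were BTBR ob/ob, which lack functional leptin, and the control mice were BTBR +/+, and each genotype was sampled at 6 weeks (the onset stage in the study) and 12 weeks (the early stage) from 2 male and 2 female mice. Both genotypes also carried the podocyte reporter, in which Cre from a podocyte promoter switches membrane tdTomato to EGFP, and the reporter strain had been crossed onto BTBR over several generations. Kidneys were digested, partly depleted of proximal tubule on a Percoll gradient and dissociated with a cold-active protease. The contrast between genotypes is a contrast between whole animals: obesity, hyperglycaemia, insulin resistance and the absence of leptin cannot be told apart in it.

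Insulin and IGF-1 bind related receptor tyrosine kinases (Insr and Igf1r), which phosphorylate the adaptors Irs1 and Irs2. The adaptors recruit PI3K, whose regulatory subunit p85 alpha is encoded by Pik3r1, and the resulting AKT activity keeps the transcription factor Foxo1 out of the nucleus. Leptin acts through Lepr and JAK2-STAT3, which induces Socs3, and Socs3 in turn restrains both leptin and insulin receptor signalling. IGF binding proteins such as Igfbp5 hold IGFs in the tissue and control how much reaches the receptor. In the kidney, insulin and IGF signalling is known to bear on podocytes, on tubular transport and on mesangial growth.

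The libraries held between 10510855 and 125551519 UMIs. The 4 female replicate 1 libraries were the shallow ones (at most 21728793 UMIs) and pairs of them shared cell barcodes, as did pairs of the other 12 (0.109% to 1.43% of the smaller library within a set, at most 0.0589% across sets). From this sharing alone, the 4 were treated as a second chemistry set in every main fit. The name is inferred, since no source assigns kits to libraries. All 4 are female replicate 1 and shallow, so kit, depth and any batch cannot be told apart in the chemistry term. Control male 6 weeks replicate 2 stood apart by a median of 698 UMIs per barcode and by 46.0% of its cells in clusters without a name. After filtering, 83768 cells remained, of which 67523 (80.6%) fell into 17 classes named from markers. The labels call the samples glomerular cells, whereas the podocyte-like, mesangial-like and glomerular endothelial-like classes held 11405 cells (13.6%) and most others were tubular. The genotype itself cannot be read from these data, since Lep RNA, made mainly in fat, gave 8 UMIs over all classes. Ins1 gave 0 and Ins2 13 UMIs. Classes are named "-like" because they were rebuilt here by clustering, and the class led by Slc14a1 (the urea transporter of vasa recta endothelium) is called Slc14a1 EC-like.

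The promoters of Irs1, Irs2 and Socs3 are shown because RNA of these members differed between the genotypes and because their windows held a match to an E-box, forkhead or STAT sequence given below. Each is the RefSeq window of 300 bases, from 250 before to 50 after the annotated start, in GRCm38.p6. Irs1 lies on chr1:82291390-82291689 (minus strand), Irs2 on chr8:11008880-11009179 (minus strand) and Socs3 on chr11:117969317-117969616 (minus strand). Capitals mark matches, read on both strands, to CACGTG (an E-box), TGTTTT (a short forkhead sequence) or TTCNNNGAA (a STAT sequence).
Irs1: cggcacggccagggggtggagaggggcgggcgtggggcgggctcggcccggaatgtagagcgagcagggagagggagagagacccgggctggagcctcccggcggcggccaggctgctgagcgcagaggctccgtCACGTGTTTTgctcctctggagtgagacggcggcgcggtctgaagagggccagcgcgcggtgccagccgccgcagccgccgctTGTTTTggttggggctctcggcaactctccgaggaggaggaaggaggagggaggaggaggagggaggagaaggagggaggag
Irs2: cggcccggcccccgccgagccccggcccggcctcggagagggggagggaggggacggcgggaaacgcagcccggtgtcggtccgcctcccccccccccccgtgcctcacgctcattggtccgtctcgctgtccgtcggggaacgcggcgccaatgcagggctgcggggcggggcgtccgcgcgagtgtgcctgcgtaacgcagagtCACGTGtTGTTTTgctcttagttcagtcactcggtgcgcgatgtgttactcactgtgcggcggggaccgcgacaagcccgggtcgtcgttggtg
Socs3: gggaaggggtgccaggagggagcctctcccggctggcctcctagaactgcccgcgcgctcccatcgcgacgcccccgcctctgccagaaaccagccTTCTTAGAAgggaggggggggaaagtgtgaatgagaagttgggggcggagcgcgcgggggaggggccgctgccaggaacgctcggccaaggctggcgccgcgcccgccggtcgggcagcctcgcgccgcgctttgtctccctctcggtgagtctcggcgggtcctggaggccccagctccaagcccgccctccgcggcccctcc
Irs1 had CACGTG at -115 and TGTTTT at -111, which overlap, and TGTTTT again at -32 from the start site. Irs2 had CACGTG at -44 and TGTTTT at -37, and Socs3 had TTCTTAGAA at -154. Over 32851 windows of the same length, CACGTG was found in 7.15%, TGTTTT in 22.1% and TTCNNNGAA in 8.30%, and the longer forkhead sequence TGTTTAC, which no member's window held, in 3.65%. The windows of 9 members were in the table, Insr being the exception, and a second Lepr window held TGTTTT on the opposite strand at -113. The windows of Igfbp5, Foxo1 and Igf1r, whose RNA also differed between the genotypes, held no match, nor did those of Igf1 and Pik3r1. Irs1, Irs2 and Socs3 were picked for having a match, so they do not show that members differing in DN carry these sequences. Positions are counted from the RefSeq start, which lay 23 bases upstream of the GENCODE M21 gene start for Irs1, 471 bases upstream for Irs2 and 681 bases downstream, inside the gene, for Socs3. A match is a description of letters and no evidence of binding.

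The members differed in where they were expressed, and in the heatmap the class with the highest mean differed between most of them. Only for Igfbp5, Irs1 and Pik3r1 did that class exceed the next beyond the spread between libraries. Levels were compared between classes for 1 gene at a time, because 3' UMI counts are not scaled to transcript length and do not rank genes. Classes were clusters of the same cells, so these levels carry no test. Positions of genes are those of GENCODE M21 on GRCm38, and Igf1, Insr, Irs1, Irs2 and Foxo1 are overlapped by genes on the opposite strand, and Pik3r1 (by Gm36638) and Foxo1 (by Gm38034) on the same strand. Sums of UMIs in a class also cannot tell more cells with a transcript from more transcripts per cell.

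**Figure D1:**
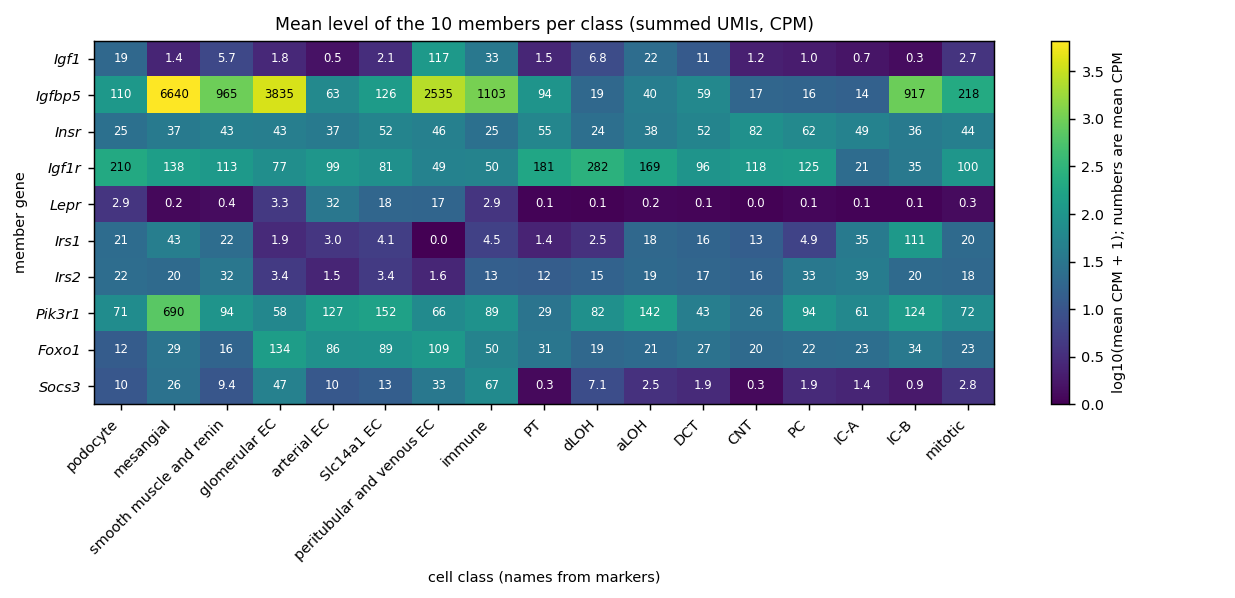
Mean CPM over libraries of the 10 members (rows) in the 17 classes (columns), with colour on a log10(CPM + 1) scale and the mean printed in each cell. Igfbp5 reached 6640 CPM in mesangial-like cells, Pik3r1 690.1 CPM in the same class, and Lepr stayed under 4 CPM outside 3 endothelial-like classes.

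Igf1 (chr10:87858265-87937042, plus strand), the ligand of Igf1r, was low in this tissue. Its mean was highest in peritubular and venous EC-like cells at 117 ± 130 CPM (SD, n = 14 libraries), but that class had only 199 Igf1 UMIs, and 2 of its libraries had none. Immune-like cells followed at 32.6 ± 36.2 CPM (n = 16) and ascending limb (aLOH)-like cells at 22.4 ± 10.1 CPM (n = 16), neighbours whose gaps were within the spread between libraries. The aLOH-like value rested on 994 UMIs and was above 0 in all 16 libraries. Distal convoluted tubule (DCT)-like cells had 11.1 ± 5.59 CPM, and glomerular EC-like and mesangial-like cells 1.77 ± 2.00 and 1.45 ± 2.65 CPM.

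In peritubular and venous EC-like cells, Igf1 at 6 weeks was 20.2, 0, 277 and 142 CPM in control (female replicates 1 and 2, then male replicates 1 and 2, the order used throughout) and 98.7, 211, 43.6 and 33.2 CPM in DN. At 12 weeks it was 81.9, 141 and 471 CPM in the 3 control libraries with enough cells and 62.2, 0 and 50.1 CPM in the 3 DN libraries. The groups overlapped at 6 weeks, and the difference over both ages (log2 fold change -1.26 ± 0.51, standard error) did not pass (adjusted p = 0.55, edgeR quasi-likelihood test with Benjamini-Hochberg adjustment over all genes of the class, as in every test below). Igf1 passed in none of the 5 classes in which it was tested.

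The genotype comparison asked whether RNA of the members differs between DN and control mice in each class. Over both ages, 11 of 115 tests of a member in a class passed (adjusted p under 0.05), 3 higher and 8 lower in DN, against 2.16% of all 148776 gene tests in the 17 classes. Because the members were chosen with earlier results of these data known, this comparison is a description and no evidence of an excess among them. The median log2 fold change of the 115 was -0.08, with 41 above and 74 below 0, where the median over all genes lay between -0.03 and 0.03 in each class. At an unadjusted p under 0.05 there were 31. Genes of a class at that p ran from 229 of 4722 in immune-like to 1927 of 9365 in mesangial-like cells. With same-numbered libraries as blocks, 20 of the 115 passed, beside 5.4% of all tests.

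**Figure D2:**
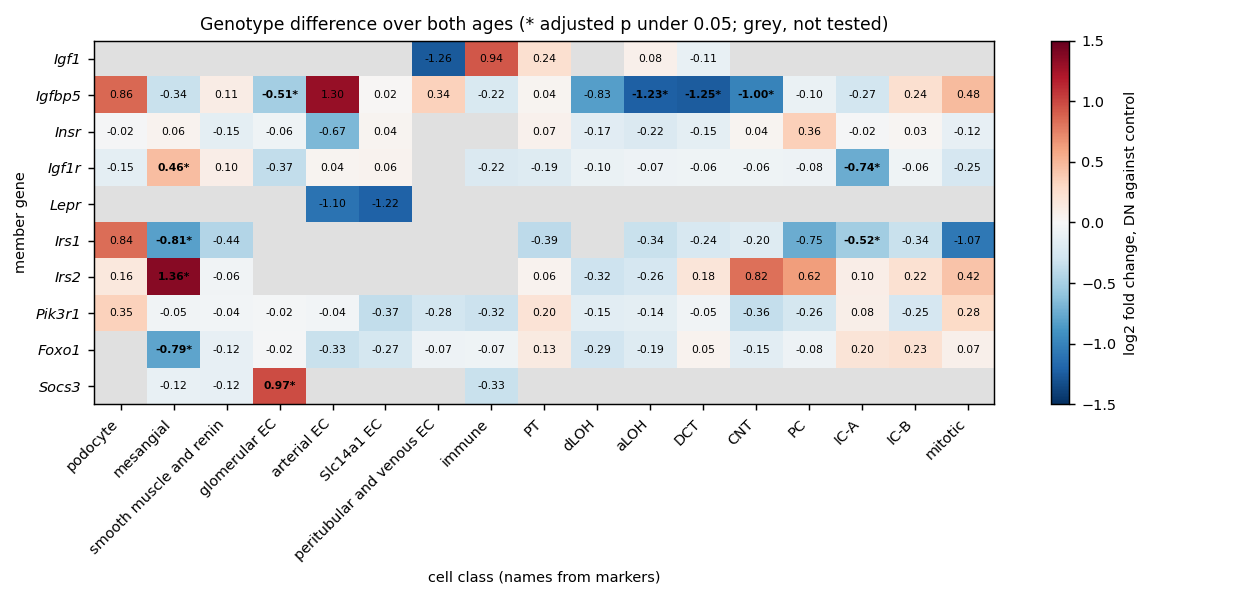
Fitted log2 fold change of DN against control over both ages for each member (rows) and class (columns), with a star where the adjusted p was under 0.05 and grey where the gene was too low to be tested. The 11 starred cells lie in 6 classes and 6 genes, and 4 of them are in mesangial-like cells, the class where 9.27% of all genes passed.

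Igfbp5 (chr1:72857932-72874884, minus strand), a secreted protein that binds IGFs and extracellular matrix, was concentrated in a few classes. It was highest in mesangial-like cells at 6640 ± 2798 CPM (n = 16) and exceeded the next class, glomerular EC-like cells (3835 ± 1523 CPM), in 14 of 16 libraries. Peritubular and venous EC-like cells had 2535 ± 1070 CPM (n = 14), a gap to glomerular EC-like cells within the spread between libraries. Immune-like (1103 ± 603 CPM), smooth muscle and renin-like (965 ± 250 CPM) and type B intercalated (IC-B)-like cells (917 ± 203 CPM) could not be ordered beyond their spread. In the immune-like class a cluster of 140 cells held 3341 CPM and the other, of 566 cells, 99.0 CPM. The smaller cluster also carried glomerular EC markers, its second-ranked list after the immune one, whose 8 genes, all detected, summed in the class to 1544 to 4352 CPM in control and 656 to 6750 CPM in DN, so the class mean of Igfbp5 cannot be given as a level of immune cells alone. The remaining 11 classes had 218 CPM or less, down to 14.1 ± 6.49 CPM in type A intercalated (IC-A)-like cells.

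Igfbp5 was lower in DN in 3 distal tubule classes and in glomerular EC-like cells. In DCT-like cells, control libraries had 42.0, 64.6, 81.2 and 88.4 CPM at 6 weeks and DN libraries 24.9, 24.5, 36.3 and 34.9 CPM. At 12 weeks the values were 83.2, 109, 90.3 and 104 CPM in control and 45.0, 36.3, 50.4 and 31.6 CPM in DN. The genotypes did not overlap at either age. Over both ages the level fell 2.37-fold (log2 fold change -1.25 ± 0.11, adjusted p = 2.92e-06), in a class where 0.463% of all genes passed. With a 20% mitochondrial limit, which left 552 of the 3748 cells, the log2 fold change was -1.38 and did not pass (adjusted p = 0.9996).

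In connecting tubule (CNT)-like cells, Igfbp5 was 37.5, 12.1, 19.7 and 28.7 CPM in control and 14.3, 6.91, 11.1 and 13.9 CPM in DN at 6 weeks. The groups overlapped at 6 weeks through 1 control library. At 12 weeks control libraries held 19.2, 18.9, 20.9 and 24.8 CPM, all above the DN libraries at 16.9, 8.34, 13.1 and 8.37 CPM. The fall over both ages was 2.01-fold (log2 fold change -1.0045 ± 0.16, adjusted p = 0.00071), and 2.38% of all genes passed in this class. A cluster of 196 of these cells came from control male 6 weeks replicate 2 alone and held 85.3% of the CNT-like UMIs of that library, and without the library the fall still passed (log2 fold change -0.91, adjusted p = 0.00406). These values rest on 3 to 216 UMIs a library, and with a 20% mitochondrial limit, which left 1239 of 4774 cells, the difference (-0.66) did not pass (adjusted p = 0.611).

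In aLOH-like cells, Igfbp5 was 21.6, 90.6, 37.0 and 66.5 CPM in control against 37.8, 20.0, 25.5 and 20.1 CPM in DN at 6 weeks. At 12 weeks it was 29.8, 68.4, 38.9 and 94.7 CPM against 20.3, 28.7, 20.9 and 19.9 CPM. The groups overlapped at 6 weeks through the shallow female replicate 1 library of each genotype, and not at 12 weeks. The fall was 2.35-fold over both ages (log2 fold change -1.23 ± 0.23, adjusted p = 0.0116), beside 1.72% of all genes in the class.

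In glomerular EC-like cells, where Igfbp5 is abundant, control libraries had 1994, 4177, 4437 and 5770 CPM and DN libraries 1726, 3024, 3217 and 4080 CPM at 6 weeks. At 12 weeks the values were 2959, 7254, 3995 and 5444 CPM in control and 1852, 4346, 2487 and 4592 CPM in DN. The groups overlapped, yet each DN library was below the control library of its own sex, age and number. The fall of 1.42-fold over both ages passed (log2 fold change -0.51 ± 0.12, adjusted p = 0.032), beside 1.95% of all genes in the class, but not with no chemistry term (adjusted p = 0.731) or in the 12 deeper libraries alone (0.131). It was also lost when any 1 of 10 libraries was left out (adjusted p up to 0.0937). The 6 libraries without which it still passed were DN female 6 weeks replicate 1, DN male 6 weeks replicate 2, DN male 12 weeks replicate 2, control male 6 weeks replicate 1, control female 6 weeks replicate 1 and control male 12 weeks replicate 1. The 7 peritubular and venous EC markers, all detected, summed in glomerular EC-like cells to 380.02 to 702 CPM in control (median 518) and 731 to 1237 CPM in DN (median 1097), with no overlap, and their part was not tested.

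**Figure D3:**
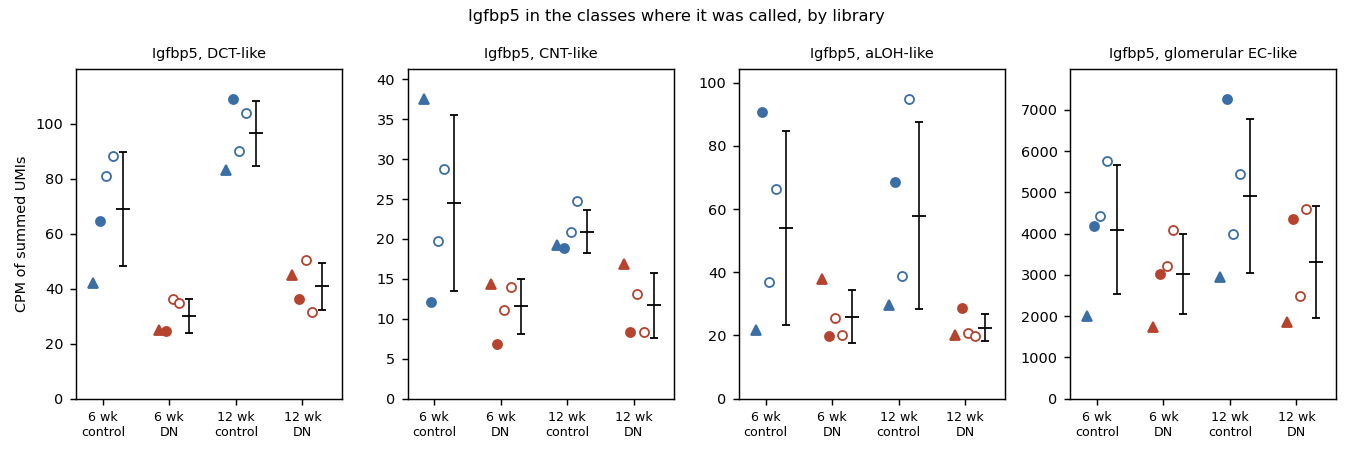
Igfbp5 in CPM (linear axis from 0) by library in DCT-like, CNT-like, aLOH-like and glomerular EC-like cells, grouped by age and genotype. Filled symbols are females, open symbols males and triangles the 4 shallow libraries, and bars give mean and SD (n = 4). In DCT-like cells the DN libraries reach at most 50.4 CPM at 12 weeks and the control libraries are at 83.2 CPM or more.

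Markers of the mesangial, glomerular EC and IC-B classes, which hold Igfbp5, were checked in the distal tubule classes. Those of the peritubular and venous EC, immune and smooth muscle and renin classes, which also hold it, are not given here. The summed level of the 7 mesangial markers was 55.4 to 117 CPM in control and 69.0 to 108 CPM in DN in DCT-like cells, 104 to 198 and 113 to 201 CPM in CNT-like cells and 6.58 to 42.7 and 6.61 to 57.8 CPM in aLOH-like cells. In each class 6 of the 7 were detected in both genotypes, and Pdgfrb was at 0 because cells with it were removed from tubular classes as doublets. The 8 glomerular EC markers, all detected, summed to 9.27 to 76.4 CPM in control and 5.30 to 80.9 CPM in DN in DCT-like cells, with like overlap in the other classes (17.6 to 96.4 and 24.7 to 71.7 CPM in CNT-like, 42.5 to 87.8 and 38.3 to 96.2 CPM in aLOH-like cells). The 6 IC-B markers, of a class that also holds Igfbp5, summed to 73.0 to 236 CPM in control (median 104) and 41.5 to 110.1 CPM in DN (median 72.3) in DCT-like cells, 20.4 to 86.8 (median 56.9) and 22.1 to 90.8 CPM (median 39.0) in aLOH-like cells, and 195 to 621 (median 252) and 282 to 574 CPM (median 393) in CNT-like cells. The part of these markers in the Igfbp5 result was not tested.

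In mesangial-like cells themselves, Igfbp5 was 4581, 14802, 7634 and 8062 CPM in control and 3676, 9820, 3872 and 6550 CPM in DN at 6 weeks. At 12 weeks it was 5076, 6084, 6134 and 8104 CPM against 4694, 3814, 6843 and 6486 CPM, and the groups overlapped at both ages. The difference over both ages (log2 fold change -0.34 ± 0.18) did not pass (adjusted p = 0.299) and passed with the replicate block (adjusted p = 0.0102).

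In podocyte-like cells Igfbp5 was uneven between libraries. At 12 weeks the DN libraries had 0, 13.3, 856 and 255 CPM and the control libraries 42.4, 59.7, 34.5 and 22.0 CPM. At 6 weeks the values were 171, 1.45, 95.6 and 74.3 CPM in control and 59.1, 9.09, 11.9 and 52.5 CPM in DN. The 12-week difference (log2 fold change 2.90 ± 0.79) had an adjusted p of 0.06 (0.000205 with the replicate block), and the 2 DN males were the only DN libraries above the control range. Of the 2 podocyte-like clusters, the one of 332 cells had 758 CPM and the one of 868 cells 28.9 CPM, and Igf1 (151 and 0 CPM) and Lepr (17.7 and 0.107 CPM) were split the same way. The smaller cluster was shallow, with a median UMI count 0.146 of that of its own samples.

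Insr (chr8:3122061-3279617, minus strand), the insulin receptor, had the most even level of the receptors. Its mean ran from 81.9 ± 29.6 CPM in CNT-like and 62.2 ± 17.6 CPM in principal cell (PC)-like cells to 23.7 ± 8.77 CPM in descending limb (dLOH)-like cells. CNT-like exceeded PC-like cells in 15 of 16 libraries, while the gap was within the spread between libraries, as was every further step in the order. In CNT-like cells it was 37.5, 151, 57.1 and 87.1 CPM in control and 105, 134, 64.6 and 98.6 CPM in DN at 6 weeks. At 12 weeks it was 74.0, 71.8, 56.4 and 86.7 CPM against 68.7, 88.6, 50.6 and 79.7 CPM.

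Insr passed in none of the 15 classes tested. Its log2 fold changes lay between -0.67 in arterial EC-like and 0.36 in PC-like cells. In PC-like cells, DN libraries were at 43.7, 99.4, 57.3 and 84.8 CPM against 40.4, 76.0, 45.0 and 68.1 CPM in control at 6 weeks, and at 60.6, 78.6, 49.1 and 76.9 CPM against 49.5, 59.5, 39.4 and 67.1 CPM at 12 weeks. Each DN library exceeded the control library with its number, sex and age, and the difference (log2 fold change 0.36 ± 0.14, adjusted p = 0.249) passed with the replicate block (adjusted p = 0.000465).

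Igf1r (chr7:67952827-68233668, plus strand), the IGF-1 receptor, was highest in dLOH-like cells at 282 ± 78.9 CPM, followed by podocyte-like (210.2 ± 80.9 CPM), proximal tubule (PT)-like (181 ± 70.1 CPM), aLOH-like (169 ± 44.6 CPM) and mesangial-like cells (138 ± 49.8 CPM). The steps between these neighbours were within the spread. Intercalated cells stood at the low end, with IC-B-like cells at 34.6 ± 14.0 CPM above IC-A-like cells at 21.1 ± 11.5 CPM in 16 of 16 libraries. In dLOH-like cells the level was 170.3, 355, 273 and 348 CPM in control and 187, 412, 245 and 356 CPM in DN at 6 weeks, and 218, 392, 268 and 328 CPM against 171, 227, 232 and 328 CPM at 12 weeks. The groups overlapped there (log2 fold change -0.10 ± 0.12, adjusted p = 0.946).

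Igf1r was higher in DN in mesangial-like and lower in IC-A-like cells. In mesangial-like cells it was 69.8, 193, 95.9 and 175 CPM in control and 135, 240.4, 131 and 187 CPM in DN at 6 weeks, and 76.0, 136, 96.0 and 108 CPM against 90.3, 202, 121 and 154 CPM at 12 weeks. The groups overlapped, with each DN library above its control counterpart, and the rise was 1.37-fold over both ages (log2 fold change 0.46 ± 0.12, adjusted p = 0.0227). It did not pass with no chemistry term (adjusted p = 0.340), in the 12 deeper libraries alone (0.0859) or without DN male replicate 2 of either age, control female 12 weeks replicate 2, control male 12 weeks replicate 1 or control male 6 weeks replicate 1 (0.0511 to 0.0736).

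In IC-A-like cells, Igf1r was 15.8, 51.7, 23.7 and 31.1 CPM in control and 5.94, 32.9, 12.0 and 14.6 CPM in DN at 6 weeks. The level at 12 weeks was 33.4, 20.0, 20.8 and 21.8 CPM in control and 13.7, 13.6, 8.996 and 18.3 CPM in DN, with no overlap, whereas the groups overlapped at 6 weeks. The fall was 1.67-fold (log2 fold change -0.74 ± 0.19, adjusted p = 0.0445), beside 1.59% of all genes in the class. It was the least stable of the 11 calls and was lost when any 1 of 12 libraries was left out (log2 fold change -0.78 to -0.63, adjusted p up to 0.191). The 4 without which it still passed were DN female 6 weeks replicate 2, DN male 12 weeks replicate 2, control female 6 weeks replicate 1 and control female 12 weeks replicate 2. It was also lost with no chemistry term (adjusted p = 0.126), with a 20% mitochondrial limit (0.960) and at clustering resolution 2.0 (0.0578). The 7 PC markers in IC-A-like cells (all detected) summed to 365 to 647 CPM in control (median 427) and 208 to 389 CPM in DN (median 328), and the 7 aLOH markers (all detected) to 71.0 to 126 CPM and 128 to 260 CPM, with no overlap. PC-like cells had 125 CPM and aLOH-like cells 169 CPM of Igf1r against 21.1 CPM in IC-A-like cells, and the part of these markers was not tested. In glomerular EC-like cells Igf1r (log2 fold change -0.37 ± 0.14, adjusted p = 0.259) passed with the replicate block alone (adjusted p = 0.0166).

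Lepr (chr4:101717404-101815352, plus strand), the leptin receptor, was found mainly in endothelium. It was at 31.5 ± 25.2 CPM in arterial EC-like (n = 14), 17.6 ± 11.1 CPM in Slc14a1 EC-like (n = 16) and 16.7 ± 21.8 CPM in peritubular and venous EC-like cells (n = 14), with gaps within the spread. Glomerular EC-like cells had 3.29 ± 2.05 CPM, immune-like cells 2.95 ± 4.73 CPM and podocyte-like cells 2.87 ± 7.80 CPM, and all other classes had 0.352 CPM or less. The 3' counts do not separate the long, signalling form of the receptor from its short forms. Such low values in tubular classes rest on 1 to 17 UMIs over all libraries and were not read as expression.

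In arterial EC-like cells, Lepr was 8.06, 16.6, 38.7 and 48.4 CPM in control and 0, 22.2, 15.8 and 42.7 CPM in DN at 6 weeks. The level at 12 weeks was 45.1, 31.6 and 99.6 CPM in the 3 control libraries with enough cells and 8.29, 45.0 and 19.1 CPM in the 3 DN libraries. The groups overlapped (log2 fold change -1.10 ± 0.41, adjusted p = 0.429).

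In Slc14a1 EC-like cells, Lepr was 10.6, 18.4, 15.0 and 24.6 CPM in control and 3.63, 13.0, 13.0 and 16.6 CPM in DN at 6 weeks. At 12 weeks control libraries had 25.1, 16.7, 29.2 and 49.7 CPM and DN libraries 5.34, 15.5, 6.34 and 17.9 CPM. All 8 DN libraries were below their control counterparts, on 2 to 35 UMIs each. The difference over both ages (log2 fold change -1.22 ± 0.28) did not pass (adjusted p = 0.0904) and passed with the replicate block (adjusted p = 0.0139). The summed arterial EC markers in this class, all 8 detected, were 3165 to 3681 CPM in control and 2872 to 3838 CPM in DN.

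Irs1 (chr1:82233101-82291416, minus strand), an adaptor that links both receptors to PI3K, led in the IC-B-like cells. Its level there was 111 ± 30.0 CPM, above the next class, mesangial-like cells (42.8 ± 19.7 CPM), in 16 of 16 libraries. IC-A-like cells followed at 35.0 ± 9.70 CPM. PT-like cells were near the floor at 1.40 ± 0.927 CPM and glomerular EC-like cells at 1.86 ± 1.94 CPM, and in peritubular and venous EC-like cells no UMI was found in 14 libraries. Insrr, an orphan relative of the insulin receptor, was also highest in IC-B-like cells (319 ± 48.2 CPM). In IC-B-like cells Irs1 was 164, 111, 88.2 and 116 CPM in control and 134, 117, 79.1 and 69.6 CPM in DN at 6 weeks, and 177, 98.3, 123 and 119 CPM against 110.5, 88.0, 71.6 and 109 CPM at 12 weeks. The groups overlapped (log2 fold change -0.34 ± 0.10, adjusted p = 0.168), and the difference passed with the replicate block (adjusted p = 0.0264). The 7 aLOH markers, all detected, summed in IC-B-like cells to 467 to 1242 CPM in control (median 669.9) and 881 to 1614 CPM in DN (median 1028), and their part was not tested.

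Irs1 fell in mesangial-like and in IC-A-like cells of DN mice, and its log2 fold change was below 0 in 10 of the 11 classes tested. In mesangial-like cells it was 33.2, 91.6, 33.8 and 63.3 CPM in control and 22.0, 56.7, 25.6 and 29.4 CPM in DN at 6 weeks. At 12 weeks control libraries had 41.5, 57.6, 65.3 and 52.0 CPM and DN libraries 26.1, 25.6, 25.5 and 36.0 CPM, with no overlap. The fall over both ages was 1.75-fold (log2 fold change -0.81 ± 0.16, adjusted p = 0.00215) and passed in all alternatives (10 other settings and 16 single libraries left out). In this class 9.27% of all genes passed.

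In IC-A-like cells, Irs1 was 50.7, 37.8, 39.3 and 40.6 CPM in control and 35.7, 37.6, 25.6 and 27.5 CPM in DN at 6 weeks, and 51.2, 36.0, 39.4 and 42.7 CPM against 23.5, 20.5, 18.7 and 33.3 CPM at 12 weeks. The genotypes did not overlap at either age. The fall was 1.43-fold (log2 fold change -0.52 ± 0.12, adjusted p = 0.0225), and it did not pass without either DN female of 12 weeks, DN male replicate 1 of either age, either control female of 12 weeks or control male 6 weeks replicate 2 (0.0515 to 0.0906). It was also lost with no chemistry term (0.123), with a 20% mitochondrial limit (0.346) and in the 12 deeper libraries (0.143). Beside the PC and aLOH markers given above for this class, the 6 IC-B markers, all detected, summed to 777 to 908 CPM in control and 838 to 1089 CPM in DN. The part of the 3 lists was not tested. In PC-like cells Irs1 (log2 fold change -0.75 ± 0.22, adjusted p = 0.0923) passed with the replicate block (adjusted p = 0.0331).

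Irs2 (chr8:10984681-11008458, minus strand), the second adaptor, had another distribution. It was at 39.1 ± 13.9 CPM in IC-A-like, 33.2 ± 17.2 CPM in PC-like and 31.6 ± 12.3 CPM in smooth muscle and renin-like cells, which did not differ beyond their spread, and lowest in the 4 endothelial-like classes (1.46 to 3.45 CPM). In IC-A-like cells it was 15.8, 50.02, 37.9 and 49.1 CPM in control and 27.7, 72.6, 24.3 and 54.0 CPM in DN at 6 weeks, and 39.0, 38.2, 37.4 and 36.9 CPM against 22.2, 42.6, 30.6 and 46.9 CPM at 12 weeks. The log2 fold change there was 0.10 ± 0.17 (adjusted p = 0.944).

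Irs2 rose in mesangial-like cells, where Irs1 fell. It was 9.97, 44.2, 2.18 and 7.60 CPM in control and 9.41, 39.5, 22.3 and 32.8 CPM in DN at 6 weeks. The level at 12 weeks was 3.46, 8.92, 10.4 and 11.1 CPM in control and 19.0, 38.9, 27.8 and 28.1 CPM in DN. At 6 weeks the 2 females of each genotype lay side by side and the males differed, while at 12 weeks the groups did not overlap. The rise over both ages was 2.57-fold (log2 fold change 1.36 ± 0.28, adjusted p = 0.00275) and passed in all of the same alternatives. Control libraries gave 1 to 41 UMIs each and DN libraries 3 to 118.

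In CNT-like cells, Irs2 was 5.36, 26.6, 6.94 and 13.2 CPM in control and 0, 39.2, 10.0 and 40.0 CPM in DN at 6 weeks, and 8.22, 10.7, 8.59 and 11.7 CPM against 14.5, 23.6, 14.3 and 15.0 CPM at 12 weeks. The groups did not overlap at 12 weeks. The difference over both ages (log2 fold change 0.82 ± 0.24, adjusted p = 0.0823) passed with the replicate block (adjusted p = 0.00096).

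Pik3r1 (chr13:101680563-101768217, minus strand), which encodes the p85 alpha, p55 alpha and p50 alpha subunits of PI3K, was far higher in mesangial-like cells than elsewhere. Its level there was 690.1 ± 114 CPM against 152 ± 51.7 CPM in Slc14a1 EC-like cells, and the order held in 16 of 16 libraries. CNT-like cells were lowest at 26.2 ± 5.02 CPM. In mesangial-like cells it was 618, 685, 658 and 947 CPM in control and 765, 616, 515 and 682 CPM in DN at 6 weeks, and 708, 795, 574 and 703 CPM against 668, 821, 517 and 769 CPM at 12 weeks. The groups overlapped at both ages (log2 fold change -0.05 ± 0.12, adjusted p = 0.857). Of 17 classes tested none passed, and 2 passed with the replicate block, CNT-like (log2 fold change -0.36 ± 0.11, adjusted p = 0.0894, blocked 0.0176) and PC-like cells (-0.26 ± 0.09, adjusted p = 0.182, blocked 0.0344).

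Foxo1 (chr3:52268336-52353221, plus strand), the transcription factor that insulin signalling shuts out of the nucleus, was highest in the endothelial-like classes. Glomerular EC-like cells had 134 ± 27.5 CPM, peritubular and venous EC-like cells 109 ± 46.3 CPM, Slc14a1 EC-like cells 88.5 ± 20.6 CPM and arterial EC-like cells 86.3 ± 32.0 CPM, in an order within the spread. Immune-like cells, a class with the glomerular EC-marked cluster described for Igfbp5, followed at 49.7 ± 25.4 CPM, not a level of immune cells alone. Podocyte-like cells had the lowest Foxo1 at 12.1 ± 6.93 CPM. In glomerular EC-like cells it was 95.01, 141, 143 and 187 CPM in control and 100.2, 147, 128 and 167 CPM in DN at 6 weeks, and 96.3, 146, 131 and 132 CPM against 109.6, 178, 127 and 119 CPM at 12 weeks. The log2 fold change there was -0.02 ± 0.09 (adjusted p = 1).

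Foxo1 fell in mesangial-like cells, the only 1 of 16 classes where it passed. It was 39.9, 44.2, 38.1 and 32.9 CPM in control and 15.7, 18.9, 25.2 and 22.0 CPM in DN at 6 weeks, with no overlap. The level at 12 weeks was 20.7, 44.6, 38.9 and 35.8 CPM against 14.3, 26.8, 16.98 and 24.4 CPM, with overlap through the shallow control female replicate 1 alone. The fall was 1.73-fold over both ages (log2 fold change -0.79 ± 0.15, adjusted p = 0.00139) and passed in all of the same alternatives.

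**Figure D4:**
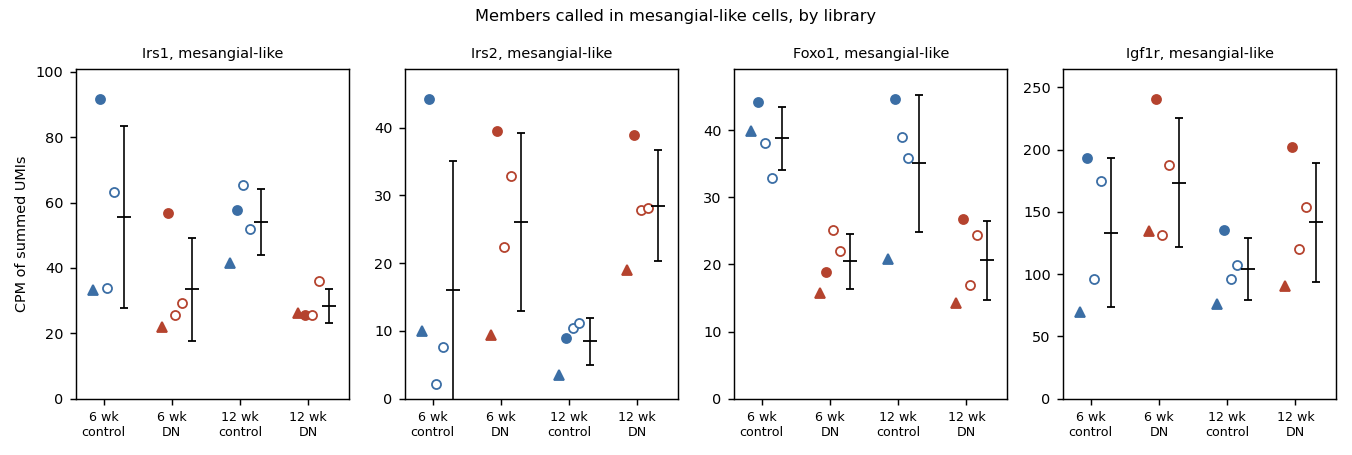
Irs1, Irs2, Foxo1 and Igf1r in mesangial-like cells, in CPM (linear axes from 0) by library, grouped by age and genotype. Filled symbols are females, open symbols males and triangles the 4 shallow libraries, and bars give mean and SD (n = 4). At 12 weeks the DN libraries of Irs2 (19.0 to 38.9 CPM) lie above and those of Irs1 (25.5 to 36.0 CPM) below all control libraries.

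The mesangial-like libraries of both genotypes also differed in other ways. The 7 smooth muscle and renin markers summed to 133 to 529 CPM in control (median 354, with Cnn1 at 0) and to 661 to 1477 CPM in DN (median 973, all 7 detected), with no overlap. The 16 dissociation stress genes summed to 1350 to 2003 CPM in control and 1669 to 3838 CPM in DN, and 5 of the 15 tested passed as higher and 0 as lower (median log2 fold change 0.64), in a class where 9.27% of all genes passed. The 10 PT markers summed to 89.7 to 550 CPM and 101 to 350 CPM, with 9 detected and Cubn at 0 through the removal of doublets. The 6 IC-B markers, all detected, summed to 119 to 1003 CPM in control (median 199) and 284 to 847 CPM in DN (median 377). The part of these markers in the mesangial results was not tested.

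Socs3 (chr11:117966079-117970047, minus strand), induced by STAT3 and an inhibitor of cytokine, leptin and insulin receptor signalling, was highest in immune-like cells at 66.9 ± 36.1 CPM. As that class holds the cluster with glomerular EC markers, this is not a level of immune cells alone. Glomerular EC-like cells had 46.9 ± 26.7 CPM, peritubular and venous EC-like cells 32.6 ± 27.1 CPM and mesangial-like cells 26.1 ± 8.61 CPM, with gaps within the spread, and most tubular classes were under 3 CPM. In immune-like cells it was 100.3, 104, 62.1 and 62.7 CPM in control and 64.0, 27.2, 61.3 and 60.6 CPM in DN at 6 weeks. The level at 12 weeks was 58.0, 6.49, 140 and 43.4 CPM against 109, 62.2, 97.8 and 12.4 CPM, with overlap (log2 fold change -0.33 ± 0.41, adjusted p = 1).

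Socs3 rose in glomerular EC-like cells of DN mice. It was 40.9, 26.8, 32.6 and 32.7 CPM in control and 50.8, 30.9, 54.2 and 50.3 CPM in DN at 6 weeks. By 12 weeks it was 27.0, 29.3, 39.2 and 20.9 CPM in control and 73.5, 67.6, 129.9 and 43.4 CPM in DN. The groups overlapped at 6 weeks through the DN female replicate 2 and not at 12 weeks. The rise was 1.96-fold over both ages (log2 fold change 0.97 ± 0.17, adjusted p = 0.00391). Without the DN male 12 weeks replicate 1 library the log2 fold change was 0.70 and the adjusted p 0.0673, and with no chemistry term it did not pass (adjusted p = 0.10).

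Socs3 is itself an early response gene, so the 16 dissociation stress genes are given beside it. In glomerular EC-like cells they summed to 2576 to 4011 CPM in control (median 3134) and 3041 to 6329 CPM in DN (median 3723), all 16 detected. Of 15 tested there, 3 passed as higher and 0 as lower (median log2 fold change 0.25), beside 1.95% of all genes in the class. The 7 peritubular and venous EC markers, given above for this class, did not overlap between the genotypes either. The part of both lists in the Socs3 result was not tested. The 7 mesangial markers summed to 126 to 280 CPM and 176 to 293 CPM in this class.

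**Figure D5:**
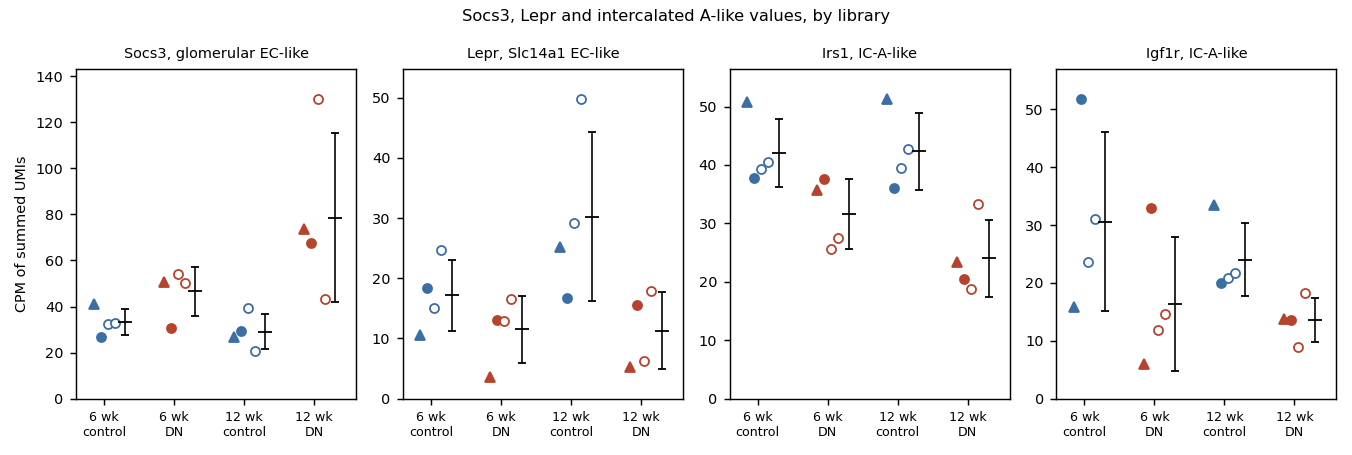
Socs3 in glomerular EC-like, Lepr in Slc14a1 EC-like, and Irs1 and Igf1r in IC-A-like cells, in CPM (linear axes from 0) by library. Filled symbols are females, open symbols males and triangles the 4 shallow libraries, and bars give mean and SD (n = 4). The DN libraries of Socs3 at 12 weeks run from 43.4 to 129.9 CPM and the control libraries from 20.9 to 39.2 CPM.

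Over all 17 classes, 1 of 115 member tests passed at 6 weeks, beside 0.252% of all tests in the main fit. It was Igfbp5 in DCT-like cells (log2 fold change -1.21 ± 0.16, adjusted p = 0.00283). At an unadjusted p under 0.05 there were 14, where genes of a class ran from 172 of 8672 in mitotic-like to 1042 of 9365 in mesangial-like cells. With the replicate block 10 passed at 6 weeks and 18 at 12 weeks. The block also raised the share of all tests that passed (over both ages from 2.16% to 5.4%). In the 4 classes compared more closely below, that share rose from 0.706% to 2.23% at 6 weeks and from 2.45% to 5.48% at 12 weeks. Its shares over all 17 classes by age, and for the difference between ages, are not given here, so the block's counts are not read as a result about the members. At 12 weeks 23 had an unadjusted p under 0.05, where genes of a class ran from 144 of 4722 in immune-like to 1571 of 9365 in mesangial-like cells. After adjustment 6 of 115 passed, 2 higher and 4 lower, beside 0.993% of all tests in the main fit. Igfbp5 in DCT-like (-1.29 ± 0.15, adjusted p = 0.000367) and CNT-like cells (-1.05 ± 0.21, adjusted p = 0.0105) were 2 of them, and the other 4 are described next. In the contrast of 12 against 6 weeks 0 of 115 passed (beside 0.0383%, 0 with DESeq2), with 12 at an unadjusted p under 0.05. Genes of a class at that p ran from 397 of 9644 in aLOH-like to 1290 of 12142 in PT-like cells. In the difference of the genotype effect between ages 0 of 115 passed (beside 0.00336%, 2 with the block, 0 with DESeq2), with 4 unadjusted. Genes of a class unadjusted there ran from 134 of 12142 in PT-like to 223 of 5122 in arterial EC-like cells.

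The ages were compared more closely in podocyte-like, glomerular EC-like, mesangial-like and PT-like cells, with 28 tests of members in each contrast. At 6 weeks 5 had an unadjusted p under 0.05, where genes of a class ran from 413 of 6813 in podocyte-like to 1042 of 9365 in mesangial-like cells. After adjustment 0 passed, beside 0.706% of all 37653 gene tests in the main fit, and 3 with the replicate block, beside 2.23%. DESeq2 called 0 there too. At 12 weeks 7 passed with the block (beside 5.48% of all tests) and 0 with no chemistry term (1.06%). In the main fit 4 passed, beside 2.45% of all tests. They were Socs3 in glomerular EC-like cells (log2 fold change 1.49 ± 0.26, adjusted p = 0.00915) and, in mesangial-like cells, Irs2 (1.71 ± 0.37, adjusted p = 0.00601), Irs1 (-0.95 ± 0.21, adjusted p = 0.00783) and Foxo1 (-0.76 ± 0.19, adjusted p = 0.018). Leaving out 1 library lost Socs3 in 3 of 16 cases (0.94 without DN male 12 weeks replicate 1, adjusted p = 0.286, and adjusted p = 0.0564 and 0.0501 without control female or male 12 weeks replicate 1) and Irs2 in 1 (without control female 12 weeks replicate 2, adjusted p = 0.0773). Irs1 was lost without DN female 12 weeks replicate 2 (adjusted p = 0.0867), DN male 12 weeks replicate 1 (0.0518) or control male 12 weeks replicate 1 (0.0522). Foxo1 was lost without DN male 12 weeks replicate 1 (0.128), control female 12 weeks replicate 2 (0.116) or control male 12 weeks replicate 1 (0.0916) or 2 (0.0506). The calls added by the block were Igfbp5 in glomerular EC-like and podocyte-like cells and Igf1r in mesangial-like cells.

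Mesangial Foxo1 differed by about the same size at 6 weeks (-0.81 ± 0.23, adjusted p = 0.0864) and passed there with the block (adjusted p = 0.0496). The other 2 calls of the block at 6 weeks were Igfbp5 in glomerular EC-like (adjusted p = 0.0261) and mesangial-like cells (adjusted p = 0.0221).

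In these 4 classes the difference between ages itself had an unadjusted p under 0.05 in 2 of 28 tests. Genes of a class at that p ran from 134 of 12142 in PT-like to 280 of 9333 in glomerular EC-like cells. No member passed after adjustment (0 of 28, 0 with DESeq2), beside 0.0133% of all tests, and 1 passed with the block, beside 0.0956%. For Socs3 in glomerular EC-like cells that difference was 1.02 ± 0.35 on the log2 scale (adjusted p = 1). The 1 member passing with the block was Igfbp5 in podocyte-like cells (adjusted p = 0.0135). In the contrast of 12 against 6 weeks over both genotypes, 0 of 28 passed (4 at an unadjusted p under 0.05, 0 with DESeq2), beside 0.0133% of all tests. Genes of a class at that unadjusted p ran from 372 of 6813 in podocyte-like to 1290 of 12142 in PT-like cells.

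The other genes of the pathway were taken from 7 lists with 111 genes. Of these, 103 were tested in at least 1 class, giving 1205 tests, and 43 passed (35 higher and 8 lower in DN), or 109 with the replicate block. The share is 3.57%, beside the 2.16% of all tests given above (5.4% with the block). They were 26 genes in 12 classes. Because the lists, like the members, were chosen with earlier results of these data known, their shares are a description and no evidence of an excess. The STAT3 response genes gave 16 of the 35 rises and 0 falls in 85 tests (18.8%, median log2 fold change 0.15). The 16 dissociation stress genes, which are no part of the pathway, gave 27 rises and 2 falls in 255 tests (11.4%, median 0.12). Their calls fell only partly in the classes of the STAT3 response calls. No stress gene passed in IC-A-like, IC-B-like or dLOH-like cells, where STAT3 response genes did. In smooth muscle and renin-like, PT-like, DCT-like and glomerular EC-like cells the reverse held. The part of the stress genes in the STAT3 response result was not tested. IGF binding and release genes gave 8 rises and 1 fall in 74 tests (12.2%, median 0.12), FOXO factors and targets 4 and 4 in 238 (3.36%), and JAK, STAT and SOCS genes 3 and 1 in 178 (2.25%). PI3K, AKT and mTOR genes gave 2 rises and 1 fall in 369 tests (0.813%), adaptors and receptor regulators 1 and 1 in 201 (0.995%), and other ligands and receptors 1 and 0 in 60 (1.67%).

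Lcn2, an iron-carrier protein released by injured tubules, passed as higher in 5 tubular classes. In PC-like cells it went from 126 ± 37.5 CPM in control to 350 ± 109 CPM in DN (n = 8 each, log2 fold change 1.496 ± 0.15, adjusted p = 4.26e-05), where 2.62% of all genes passed. The log2 fold change was 2.41 in dLOH-like, 1.70 in IC-B-like and 1.24 in both aLOH-like and CNT-like cells. In dLOH-like cells it ran from 4.33 to 12.5 CPM in control (median 7.30) and from 5.40 to 256 CPM in DN (median 24.2), with overlap. The groups overlapped in IC-B-like, aLOH-like and CNT-like cells as well. The levels in IC-B-like (0.780 CPM in control, 4.30 CPM in DN) and CNT-like cells (3.93 and 7.85 CPM) are small beside those of PC-like cells, and the part of RNA carried over from other cells in them was not tested. The 6 IC-B markers, all detected, also differed in PC-like cells, where they summed to 246 to 687 CPM in control (median 365) and 649 to 1911 CPM in DN (median 1026). Their part in Lcn2 and in the other PC-like results (Insr, Irs1, Pik3r1, Cebpd, Cebpb, Pappa and Trib1) was not tested.

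Cebpd, a transcription factor induced by STAT3, rose in 6 classes, with log2 fold changes of 2.17 in CNT-like, 1.72 in podocyte-like, 1.40 in arterial EC-like, 1.02 in PC-like, 1.01 in aLOH-like and 0.91 in IC-A-like cells. Cebpb, its relative, rose in PC-like cells (1.06). In CNT-like cells Cebpd ran from 3.10 to 62.4 CPM in control and from 9.56 to 80.9 CPM in DN. For both genes the genotypes overlapped in every class named. Dissociation stress genes moved in some of these classes: 6 of 13 passed as higher in podocyte-like (median log2 fold change 1.46), 5 of 15 in arterial EC-like (0.63), 2 of 16 in CNT-like (0.42), 1 of 16 in PC-like (-0.07), 1 of 15 in aLOH-like (0.18) and 0 of 16 in IC-A-like cells (0.04). Their part in the Cebpd result was not tested.

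Stat3 itself, the transcription factor downstream of Lepr, rose in PT-like (log2 fold change 0.50 ± 0.09, adjusted p = 0.00614), CNT-like (0.47 ± 0.12) and IC-A-like cells (0.34 ± 0.09), with overlap between the genotypes in each. In PT-like cells, where 4.39% of all genes passed, Socs2, a STAT5-induced inhibitor of growth hormone signalling, fell from 15.9 ± 7.87 to 6.71 ± 4.14 CPM (log2 fold change -1.25 ± 0.31). Igfbp1, an IGF binding protein that insulin represses in liver, rose there (0.78 ± 0.17), as did Cited2 (0.53) and the PI3K subunit Pik3cd (1.45, from 0.398 to 1.52 CPM). The genotypes overlapped there for Socs2, Igfbp1 and Cited2 and not for Pik3cd. The clusters of the PT-like class were mixed differently in the genotypes, with 1 cluster at 25.4% of control and 34.7% of DN cells, another at 33.9% and 26.0%, and the smallest of 441 control and 2 DN cells. Before doublets were removed, 98.9% of that smallest cluster came from control male 6 weeks replicate 2, where it held 77.98% of the PT-like UMIs. Without that library Stat3, Socs2 and Igfbp1 still passed and Cited2 (adjusted p = 0.0727) and Pik3cd (0.0546) did not, and the part of the rest of this mix was not tested. In aLOH-like cells the FOXO target Ccng2 rose (0.55 ± 0.12), with overlap.

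Mesangial-like cells had 9 calls in 79 pathway tests (11.4%, beside the 9.27% of all genes in this class), of which the 6 with the lowest p are named. The FOXO target Gadd45a fell from 36.4 ± 7.59 to 17.9 ± 6.31 CPM (n = 8 each, log2 fold change -1.04 ± 0.15, adjusted p = 0.000137), and Pik3cd fell (-1.05 ± 0.20). The cytokine receptors Osmr (0.71 ± 0.12) and Il6ra (1.34 ± 0.24) rose, as did Htra1, a protease that cleaves IGF binding proteins (0.56 ± 0.10), and Igfbp4 (0.43 ± 0.10). Each of these 6 genes overlapped between the genotypes in mesangial-like cells.

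In CNT-like cells Pappa, a protease that frees IGF from its binding proteins (log2 fold change 1.39 ± 0.30), and the PI3K subunit Pik3r3 (0.49 ± 0.12) rose. Stc1, an inhibitor of that protease, passed as higher there (1.21 ± 0.30), but its mean was 139 ± 240 CPM in control and 179 ± 132 CPM in DN. It ran from 27.9 to 729 CPM in control (median 49.97) and from 86.1 to 496 CPM in DN (median 140), with overlap. Pappa overlapped there too (26.8 to 272 CPM in control, median 32.6, and 28.7 to 240 CPM in DN, median 134). So did Pik3r3 (20.0 to 35.0 CPM in control and 28.7 to 62.2 CPM in DN). Without control male 6 weeks replicate 2, the library with the cluster of its own described above, Stc1 (adjusted p = 0.0875) and Stat3 (0.0806) no longer passed in CNT-like cells, and Pappa, Pik3r3, Cebpd and Lcn2 did. Pappa also rose in PC-like cells (1.28 ± 0.31, from 210.0 ± 166 to 473 ± 249.8 CPM), and the pseudokinase gene Trib1 fell there (-0.52 ± 0.10), both with overlap. In podocyte-like cells, where 3.58% of all genes passed, Igfbp6 (2.97 ± 0.58), Lrp1 (2.49 ± 0.50), Serpina3n (3.68 ± 0.81) and Cited2 (0.70 ± 0.19) rose and Htra1 fell (-0.56 ± 0.13, from 709 ± 159 to 472 ± 132 CPM). Each of these genes overlapped between the genotypes. Igfbp6 ran from 1.13 to 22.8 CPM in control and from 0 to 223 CPM in DN. Cited2 ran from 159 to 336 and from 148 to 500 CPM, and Htra1 from 558 to 963 and from 236 to 632 CPM, control first. Lrp1 had medians of 13.2 and 30.0 CPM (highest 77.9 and 132 CPM), and Serpina3n 0.213 and 9.18 CPM (highest 46.7 and 102 CPM). In the same class the 16 stress genes, all detected, summed to 1820 to 2959 CPM in control and 2169 to 7995 CPM in DN, and 6 of the 13 tested passed as higher (median log2 fold change 1.46), a move whose part in these rises was not tested. In smooth muscle and renin-like cells, where 3.07% of all genes passed, Ppargc1a, a coactivator of mitochondrial genes, fell (-1.09 ± 0.23) and Igfbp7 rose (0.53 ± 0.13), both with overlap. The class joined a cluster led by Ren1 (73.4% of control and 62.2% of DN cells) and one led by Rgs5 (26.6% and 37.8%), and of 16 stress genes 2 passed as higher and 2 as lower (median log2 fold change -0.41). The part of either was not tested. Pck1, a gluconeogenic enzyme of the proximal tubule, passed in mitotic-like cells (2.55 ± 0.39, adjusted p = 0.0433) and not with the replicate block (adjusted p = 0.135), in a class where 0.0346% of all genes passed. The 10 PT markers, all detected, summed there to 149 to 5686 CPM in control (median 198) and 1031 to 3985 CPM in DN (median 2940), and their part was not tested.

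The genes most like each member were taken by Pearson correlation of log2(mean CPM + 1) over the 17 classes, whose points share libraries and depth. Lepr was closest to Crispld1, Jam2 and Igfbp3 (each r = 0.96). Foxo1 was closest to Dennd3 (0.96), Gm9917 (0.95) and Atox1 (0.94), and Socs3 to Nfkb1 (0.95), Kpna4 (0.95) and Tnfrsf1a (0.94). Irs2 followed 1700021F05Rik (0.91), Foxp4 (0.90) and Cys1 (0.89), and Irs1 followed Spire1 (0.88), Zfp651 (0.83) and Slc2a4 (0.82), the insulin-regulated glucose transporter.

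Igfbp5 was closest to Spry4, Pla2r1 and Chst15 (each 0.87), Pik3r1 to Scarf2 (0.81), Mmp16 (0.80) and Hcar1 (0.79), and Igf1r to Mlh3 (0.79), Tpcn1 (0.78) and Cited2 (0.77). Insr was closest to Nectin3 (0.73), Gstk1 (0.73) and Tmie (0.72), and Igf1 to Robo3 (0.68), Ccl2 (0.66) and 0610040B10Rik (0.66).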

How the data were processed

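The authors deposited gene-by-barcode tables of raw UMI counts, 1 per library, made per the labels and the study's methods with Cell Ranger 3.0.2 and the mm10 reference, and without normalization. The kits were 3' v2 and v3, with no assignment to libraries in the sources used here, and the study tested single cells with MAST, whereas here UMIs were summed per library. Of 116439 barcodes (1267078476 UMIs), 94436 passed 200 to 7000 genes and at most 50% mitochondrial UMIs, and non-tubular classes other than mitotic-like were held to 20%. Cells with a defining marker of the lineage opposite to that of their cluster, tubular or other, were removed as doublets (9376, 9.93%). This sets Pdgfrb, Pecam1 and Ptprc to 0 in tubular and Cubn and Epcam to 0 in other classes. Mitotic-like cells were removed only with markers of both lineages, so none of these genes is set to 0 there. Scrublet marked 2122 cells (2.25%) and served as an alternative. Cells were clustered with scanpy 1.11.5 and leidenalg 0.10.2 (2000 variable genes, 30 components, the Harmony method across libraries, rewritten here, resolution 1.0, 52 clusters) and named from marker lists with thresholds set after the clusters were seen. The members, the other listed genes and mitochondrial, ribosomal and several sex-linked genes were kept out of the variable genes. For 1 further marker and 1 pathway gene no value is reported here. The 16245 cells of the 17 unnamed clusters were left out.

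Sums of at least 10 cells entered edgeR 4.0.16 (R 4.3.3) per class, with filterByExpr (minimum count 10), TMM scaling and terms for sex within age, chemistry set and genotype within age. The quasi-likelihood test was adjusted by Benjamini-Hochberg over all genes of a class and contrast, and DESeq2 1.42.0 was an alternative. No source says that mice shared a litter or batch. Libraries of the same sex, age and replicate number deviated together across genotypes over 8860 genes. The correlations were 0.910 and 0.885 in females of 6 and 12 weeks and 0.667 and 0.744 in males. The chemistry set was not taken out, and female replicate 1 is that set in both genotypes, so the female values cannot show pairing apart from it. The fit with the number as a block is given where it changes a call. Each library is 1 mouse, and p-values cover the spread between mice. By rule, values by library are given for a member's highest class and each class where it passed. Some classes that passed only with the block were added, and others have only the fitted values. Pathway genes are those that passed in a class, or the 6 with the lowest p. Similar genes are the 3 with the highest correlation among genes reaching 10 CPM. The members and lists were chosen with earlier results of these data known.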

Additional observations from a re-analysis of the deposited data

Results flagged for a closer look

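In groups of 4 libraries (1 genotype at 1 age), the members' levels were searched for a library set far from the other 3 by Dixon's ratio of its gap to the group's range. This held in 5 of 80 groups, where chance gives about 1 in 20. Igf1r in IC-A-like cells was 33.42 CPM in control female 12 weeks replicate 1 (184 cells, 30 UMIs), against 19.99 to 21.8 CPM in the other 3. Igfbp5 in aLOH-like cells was 28.74 CPM in DN female 12 weeks replicate 2 (86 cells, 30 UMIs), against 19.92 to 20.91 CPM. Socs3 in glomerular EC-like cells was 30.86 CPM in DN female 6 weeks replicate 2 (281 cells, 70 UMIs), against 50.32 to 54.23 CPM. Irs1 in mesangial-like cells was 36.02 CPM in DN male 12 weeks replicate 2 (442 cells, 96 UMIs), against 25.48 to 26.13 CPM. Irs2 in CNT-like cells was 23.59 CPM in DN female 12 weeks replicate 2 (197 cells, 82 UMIs), against 14.35 to 15.0 CPM.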

How the results depend on the processing

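Over both ages, 11 of 115 member tests passed, 7 of 101 with a 20% mitochondrial limit for all cells, 6 of 115 with no chemistry term, 23 of 169 with no filter on low counts and 20 of 115 with the replicate block (beside 2.16%, 2.09%, 0.887%, 2.55% and 5.4% of all gene tests), and 7 (without DN male 12 weeks replicate 1) to 11 when 1 library was left out. The counts by age are those of the podocyte-like, glomerular EC-like, mesangial-like and PT-like classes. At 6 weeks the count was 0 of 28, and 3 of 40 with no filter (1.83% of all tests), 3 with the block (2.23%) and 0 to 1 with a library left out (1 without control female 6 weeks replicate 2, beside 0.553%). At 12 weeks it was 4, and 0 with no chemistry term (1.06%), 8 of 40 with no filter (3.17%), 7 with the block (5.48%) and 2 to 6 with a library left out. The count was 2 without DN male 12 weeks replicate 1 (beside 1.79%) or control male 12 weeks replicate 1 (1.49%). For 12 against 6 weeks it was 0, and 2 of 40 with no filter (0.88%). For the difference between ages it was 0, and 2 of 40 with no filter (0.364%), 1 with the block (0.0956%) and 0 to 1 with a library left out. Of 1205 tests of other pathway genes 43 passed, 17 with no chemistry term, 122 of 1781 with no filter, 109 with the block and 28 (without control male 12 weeks replicate 2) to 43 with a library left out. DESeq2 gave 51 of them and 11 of the members. In the 4 classes just named, the share of all tests passing over both ages was 5.36% with DESeq2 and 4.85% in the main fit. There it was 3.94% without DN male 12 weeks replicate 1 and 3.73% without control male 12 weeks replicate 2. The cause of these shifts was not tested.

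Over 34 single results and their alternatives, 570 values were unchanged, 64 lost the call, 18 gained it and 0 reversed. Unchanged means the same direction and side of the threshold. For the level of each member in its highest class, which has neither, it means within the SD of the main level. Igfbp5 lost its call at the 20% limit in DCT-like (log2 fold change -1.38, adjusted p = 0.9996, 552 of 3748 cells left) and CNT-like cells (-0.66, adjusted p = 0.611). Irs1 and Igf1r in IC-A-like cells were lost in 3 settings each. The block changed no call among the members and pathway genes named beyond those given beside their results. With depth as it was, Lepr, Igf1 and Socs3 could be tested in 2, 5 and 4 classes.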

Other observations

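Within classes, members differed between clusters. In the mitotic-like class, a cluster of 79 cells had 1982 CPM of Igfbp5 and 290.4 CPM of Pik3r1, against 76.1 and 53.5 CPM in the cluster of 578 cells. The smaller cluster also carried mesangial markers, its second-ranked list after the mitotic one, and the 7 mesangial markers, all detected, summed in the class to 221 to 871 CPM in control and 181 to 1338 CPM in DN. Among the IC-B-like clusters, Irs1 was at 104 CPM in the one of 4499 cells, 83.7 CPM in the one of 816 cells and 148 CPM in the one of 736 cells. In immune-like cells, Igf1 was at 34.4 CPM in the cluster of 566 cells, led by Lyz2, Cd74 and H2-Aa, and at 2.73 CPM in the cluster of 140 cells, led by Lyz2, Fcer1g and Cybb. Clusters were built from the same cells, with the members left out of the genes used, and these values carry no test.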
